A study of Homo sapiens with 12 samples.

Results

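The genes described here are CCS, the superoxide dismutase genes SOD1 and SOD2, and 7 antioxidant genes named together with them: CAT, NQO1, HMOX1, GCLC, GCLM, TXNRD1 and SRXN1. They were taken from a list of 10 names, matched by Ensembl identifier to the deposited count tables, and not chosen by a threshold on these data. The list was, however, chosen with earlier results of these data known. Of the 10, 9 matched a row and passed the filter on low counts, among 22984 genes tested of 57773 identifiers. SOD2 is not analysed here, because the identifier that the annotation gives it, ENSG00000291237, has no row in the count tables. That gap comes from the annotation used for matching, and does not mean that the counts hold no SOD2.

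Gene counts came from RNA sequencing of HuH-7, an established human hepatoma line, in 4 groups of 3 libraries. Mutant RIP libraries held RNA recovered through the V5 tag from cells stably expressing V5-tagged HuR carrying the changes K120/182R, and WT RIP libraries held RNA recovered in the same way from cells stably overexpressing wild-type HuR. Mutant input and WT input libraries held total RNA of the same lines. HuR, encoded by ELAVL1, is an RNA-binding protein known for binding U-rich and AU-rich stretches, often in 3′ UTRs, and K120/182R replaces a pair of lysines that can carry SUMO, a small protein attached to other proteins. The comparison asks whether loss of these sites changes which RNAs are recovered with HuR. No mock precipitation was analysed here, both lines carried an added HuR beside the cells' own, and the labels do not say how many clones each line came from or whether replicates were separate cultures, so the p-values rest on variation among libraries that could be technical.

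The superoxide dismutases turn superoxide into hydrogen peroxide. SOD1 is the copper- and zinc-containing enzyme of the cytosol, and CCS is the chaperone that hands copper to it. Catalase, encoded by CAT, breaks hydrogen peroxide down in peroxisomes. NRF2, encoded by NFE2L2, is the transcription factor that raises a set of antioxidant genes under oxidative stress, among them those that make glutathione (GCLC and GCLM), reduce thioredoxin and peroxiredoxins (TXNRD1 and SRXN1), reduce quinones (NQO1) and degrade haem (HMOX1). The liver carries high levels of many of these enzymes.

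Library totals ran from 31774994 to 73149117 gene counts. Protein-coding genes took 67.3% to 77.3% of the counts in RIP libraries, against 24.8% to 40.5% in input libraries, and library sizes were therefore rescaled by TMM factors (trimmed mean of M values) of 1.32 to 1.78 for RIP libraries and 0.526 to 0.909 for inputs. Each precipitate gave 16 to 77 ng of RNA to its library, against 250 ng for each input, so the amount of RNA and the precipitation cannot be told apart. All 10 hepatocyte markers were detected in every library, from ALB to GPC3, while the 10 markers of other cell types that were matched summed to 8.20 to 16.7 CPM (counts scaled to a TMM-scaled library size of 1000000). Changes below are log2 fold changes with their SE from edgeR's quasi-likelihood test, and a gene counts as called, higher or lower, where its p adjusted over all genes tested was under 0.05. ELAVL1 itself did not pass the test between the lines, with a log2 fold change of -0.27 between inputs (adjusted p = 0.14) and -0.34 between precipitates (adjusted p = 0.0561). In precipitates over inputs ELAVL1 was called lower in the mutant line (-0.83, adjusted p = 3.35e-06) and in the WT line (-0.76, adjusted p = 1.45e-05).

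Because HuR is known for U-rich binding, the most T-rich 30-base window of each annotated 3′ UTR was taken from the GRCh37 genome, written as DNA in the direction of the transcript. The windows of CCS and GCLM, recovered above input in both lines, and of NQO1, recovered below input in both lines, are shown because the results turn on these genes, with capitals marking matches to TTTNTTT or ATTTA on the transcript strand. The window of CAT, also recovered below input in both lines, held 15 T and is not shown. Matches of the 2 motifs may overlap.
CCS: tgttcccttggcaaatgaaagtTTTATTTt
GCLM: TTTTTTTTTatgtgtccttgcttatagttt
NQO1: tttagtttttaagatttgtgttTTTCTTTt
They lie at chr11:66373452-66373481 (CCS, plus strand), chr1:94353966-94353995 (GCLM, minus strand) and chr16:69744778-69744807 (NQO1, minus strand).

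The CCS 3′ UTR was short. It measured 164 bases, shorter than all but 9.67% of the 3′ UTRs of 19431 coding genes, with 1 TTTNTTT match and no ATTTA match. Set against its length that single match is 6.10 per kb, where the median of coding 3′ UTRs was 1.90 per kb. Such a density was not particular to CCS among the members. GCLC (7.77 per kb) and CAT (6.38) had more and NQO1 had 5.71, while the rest lay from 0 (HMOX1) to 4.24 (TXNRD1), with GCLM at 2.90. Its most T-rich window held 14 T, and 83.7% of coding genes had a window with at least as many, or 50.7% of those with UTRs of 100 to 250 bases. TTTNTTT occurred in 66.6% of all coding 3′ UTRs and ATTTA in 67.9%, but in the 2144 UTRs of 100 to 250 bases these shares were 21.9% and 23.9%.

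Motif counts and recovery did not run in the same order among the members. GCLM had a 3′ UTR of 3791 bases with 11 TTTNTTT and 12 ATTTA matches. NQO1, recovered below input, had 9 TTTNTTT matches and 1 ATTTA match in 1575 bases and a window of 21 T, against 14 T for CCS and 20 T for GCLM. CAT, also recovered below input, had 4 TTTNTTT and 4 ATTTA matches in 627 bases and a window of 15 T. The most T-rich window of all members, with 24 T, was that of TXNRD1, whose enrichment was not called in either line, or was called lower in both with the GC trend removed. HMOX1 had no match of either motif in 609 bases. A match to these letters is a description of the sequence and not a binding site.

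CCS was the member whose enrichment over input differed most between the lines. It lies at chr11:66360624-66373490 on the plus strand in GRCh37 (ENSG00000173992), and shares no exon bases with another annotated gene. CCS had 302, 344 and 345 CPM in mutant RIP, against 56.0, 52.8 and 56.0 CPM in mutant input. It had 133, 179 and 184 CPM in WT RIP, against 53.3, 52.8 and 58.7 CPM in WT input. Every RIP library was above every input library, every mutant RIP library was above every WT RIP library, and the inputs of the lines overlapped. Behind these values stood 8069 to 21379 counts per RIP library and 1878 to 2737 per input library.

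**Figure D1:**
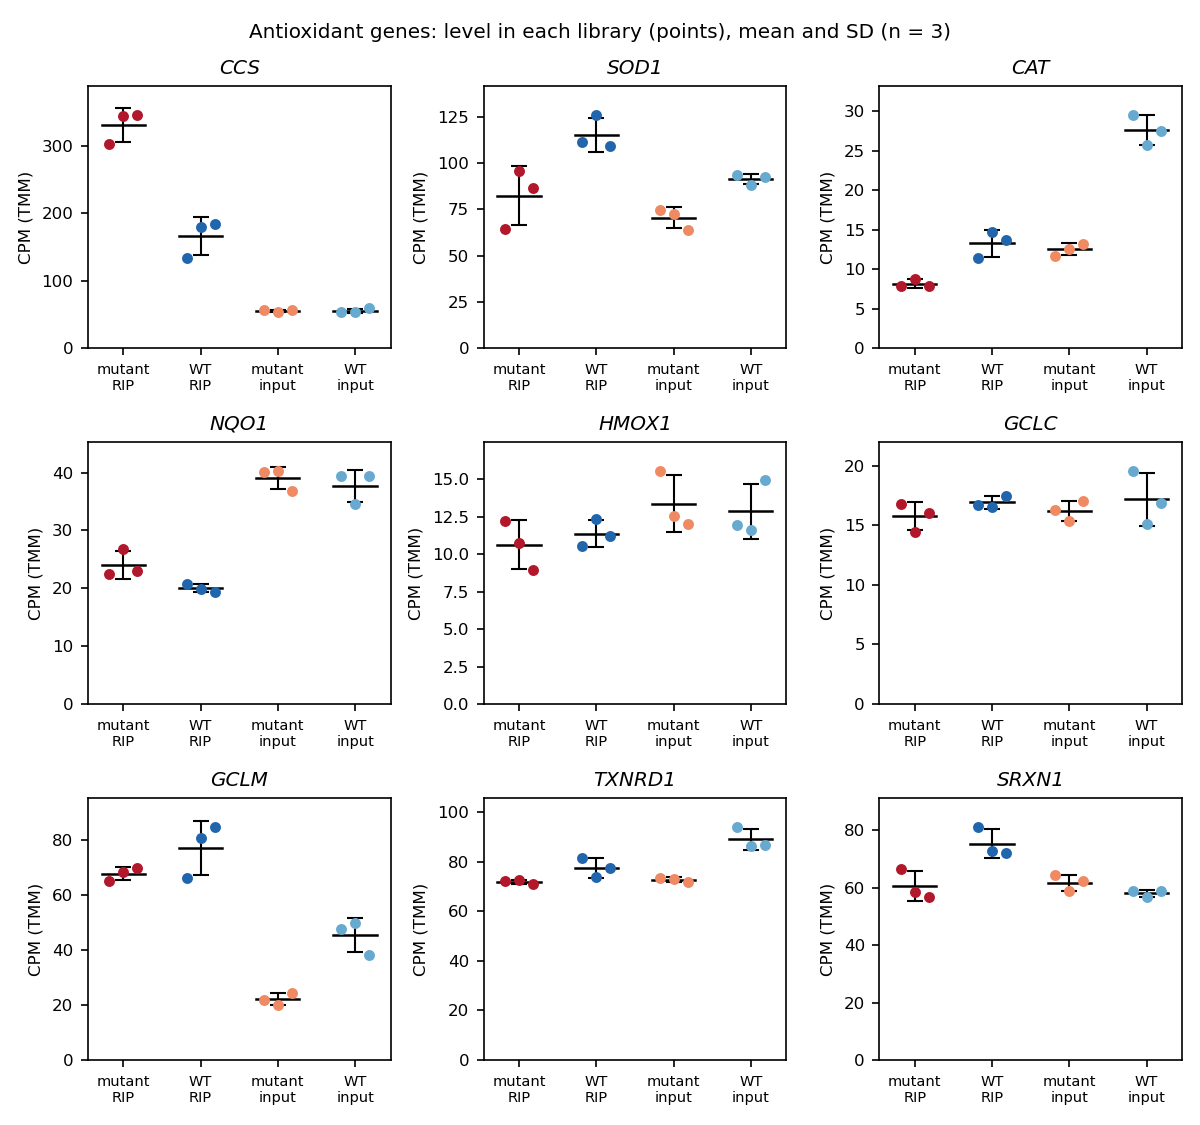
Level of each member in each library in CPM scaled by TMM (vertical axes start at 0 and differ between genes), with points for the 3 libraries of a group and black bars for the mean and SD. CCS stands at 302 to 345 CPM in mutant RIP, above 133 to 184 CPM in WT RIP, while its inputs overlap, and GCLM and CAT are lower in mutant input than in WT input.

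CCS rose in precipitates over inputs by a log2 fold change of 2.59 ± 0.14 in the mutant line (SE; a ratio of 6.01; adjusted p = 1.94e-13) and by 1.59 ± 0.14 in the WT line (a ratio of 3.02; adjusted p = 6.11e-10). The difference of these enrichments, mutant minus WT, was 0.996 ± 0.19 (95% interval 0.61 to 1.38; adjusted p = 0.0369), a ratio of 1.99. Between the precipitates themselves the log2 fold change, mutant over WT, was 0.995 ± 0.13 (adjusted p = 9.41e-06), while between the inputs it was -0.00 (interval -0.28 to 0.27).

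Across the whole table, 15 genes or 0.0653% of those tested passed the threshold for the difference of enrichments, all of them higher in the mutant line, and CCS was the 10th of them by p-value. Of the members, 1 of 9 was higher and 0 were lower. Since the members were chosen with earlier results of these data known, that count is not an independent test. With edgeR, 2 other members were higher and 1 was lower at an unadjusted p under 0.05 (GCLM and CAT higher, SRXN1 lower), and with DESeq2 CCS and GCLM were called. The call of CCS was lost in 8 of the 12 fits that left out 1 library each, with adjusted p up to 0.173 and log2 values of 0.86 to 1.08. It was lost without mutant RIP 2 or 3, without any one of the 3 mutant inputs, without WT RIP 1 and without WT input 1 or 2.

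CCS ranked high among transcripts of a like base composition. By enrichment CCS ranked 186 from the top of 14017 coding genes in the mutant line and 556 in the WT line. Its annotated transcript is 61.6% G or C, which puts it in the most GC-rich of 3 equal classes of coding genes, where the median log2 enrichment was -0.83 in the mutant line and -0.67 in the WT line. Only 21 of the 4672 genes of that class had a higher enrichment than CCS in the mutant line, and 96 in the WT line. Of the coding genes called for the difference of enrichments, CCS was the only one in this class. By the size of that difference, however, CCS ranked 290 from the top of 14017 coding genes. In its GC class 81 genes had a larger difference than CCS. With the trend of each library along GC content removed, the difference of enrichments of CCS was 1.19 on the log2 scale and passed the threshold.

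SOD1, the enzyme that CCS supplies with copper, was not called for the difference of enrichments. It lies at chr21:33031979-33041244 on the plus strand (ENSG00000142168). SOD1 had 64.5, 95.9 and 86.7 CPM in mutant RIP, against 74.6, 72.7 and 63.9 CPM in mutant input. It had 111, 126 and 109 CPM in WT RIP, against 93.3, 88.3 and 92.5 CPM in WT input. Precipitate and input overlapped in the mutant line and did not in the WT line.

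The log2 enrichment of SOD1 was 0.23 ± 0.13 in the mutant line (adjusted p = 0.152) and 0.34 ± 0.13 in the WT line (adjusted p = 0.0376). The mutant value was called higher without mutant RIP 1 (0.37, adjusted p = 0.0179), with TMM factors from coding genes (0.36, adjusted p = 0.0277) and with total library size (1.52), and was -0.043 with the GC trend removed. The WT call was lost without WT RIP 2 (0.27), without WT input 2 or 3, and with the GC trend removed (0.16). The difference of enrichments was -0.11 (interval -0.50 to 0.28), so a difference of the size seen for CCS lay outside the interval of SOD1. In mutant RIP, SOD1 fell to 82.4 ± 16.1 CPM, against 115 ± 9.17 CPM in WT RIP (SD, n = 3 each), a log2 fold change of -0.49 ± 0.13 (adjusted p = 0.0111). That call was lost without mutant RIP 1 (-0.34, adjusted p = 0.0773). In the inputs the log2 fold change, mutant over WT, was -0.38 (adjusted p = 0.0527), with no overlap between the groups. It was called lower in 6 of 21 other settings, namely with no filter on low counts (-0.39), with total library size (-0.82), and without mutant RIP 1 or 2 or WT RIP 1 or 2 (adjusted p of 0.0270 to 0.0499).

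Set per kilobase of annotated exon, CCS stood above SOD1 in the precipitates of both lines, while their order in mutant input depended on the length used. In mutant input SOD1 stood at 35.6 ± 2.89 CPM per kb and CCS at 25.6 ± 0.86. In WT input the levels were 46.3 ± 1.37 for SOD1 and 25.6 ± 1.52 for CCS. In mutant RIP CCS stood at 154 ± 11.5 CPM per kb and SOD1 at 41.7 ± 8.18, and in WT RIP CCS stood at 77.4 ± 13.1 and SOD1 at 58.4 ± 4.64 (SD, n = 3 each). Per kilobase of the longest transcript, CCS was above SOD1 in mutant input (45.2 ± 1.51 against 40.3 ± 3.26 CPM per kb) and below it in WT input (45.3 ± 2.68 against 52.3 ± 1.55), and it remained above SOD1 in mutant RIP (272 against 47.2) and WT RIP (137 against 66.1).

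Catalase mRNA was lower in the mutant line and was recovered below input in both lines. CAT lies at chr11:34460481-34493607 on the plus strand (ENSG00000121691). It had 7.88, 8.80 and 7.85 CPM in mutant RIP, against 11.7, 12.6 and 13.2 CPM in mutant input. It had 11.4, 14.7 and 13.7 CPM in WT RIP, against 29.5, 25.7 and 27.5 CPM in WT input. Within each line every precipitate was below every input, and every mutant input was below every WT input.

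The log2 enrichment of CAT was -0.61 ± 0.13 in the mutant line (adjusted p = 0.000258) and -1.05 ± 0.13 in the WT line (adjusted p = 1.46e-07). Scaling by total counts in place of TMM put the median of all genes at 1.38 in the mutant line and 1.12 in the WT line, and CAT at 0.69 and -0.02, which is still below those medians. CAT fell in the mutant line against the WT line in inputs by 1.14 ± 0.13 on the log2 scale (adjusted p = 1.2e-06) and in precipitates by 0.70 ± 0.13 (adjusted p = 0.000364). The difference of enrichments was 0.44 ± 0.18 and did not pass (adjusted p = 0.274). Marker levels also differed between the lines. The hepatocyte markers summed to 8720 to 9911 CPM in mutant input, against 11250 to 13273 CPM in WT input. AFP held most of that sum, at 5127 CPM in mutant input and 8337 CPM in WT input. ALB (785 against 662 CPM) and APOA1 (1170 against 989 CPM) went the other way. Of the 10 hepatocyte markers, 0 were called higher and 2 lower between the inputs. The markers of other cell types summed to 15.9 to 16.7 CPM in mutant input, against 9.95 to 12.03 CPM in WT input. The part of marker levels in the lower CAT of mutant input, and in that of GCLM below, was not tested. In libraries of a whole culture, fewer cells with an RNA and less of it per cell cannot be told apart.

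The genes for glutathione synthesis behaved differently from each other. GCLC encodes the catalytic subunit of glutamate-cysteine ligase, the first enzyme of glutathione synthesis, and GCLM its modifier subunit. GCLM lies at chr1:94350755-94375012 on the minus strand (ENSG00000023909). It had 65.3, 68.3 and 70.0 CPM in mutant RIP, against 21.8, 20.1 and 24.4 CPM in mutant input. It had 66.2, 80.9 and 84.8 CPM in WT RIP, against 47.8, 49.9 and 38.3 CPM in WT input. The precipitates of the lines overlapped, while every mutant input was below every WT input.

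GCLM rose over input by 1.62 ± 0.13 on the log2 scale in the mutant line (adjusted p = 1.2e-10) and by 0.77 ± 0.13 in the WT line (adjusted p = 1.62e-05). The difference of enrichments was 0.85 ± 0.18 and lay just outside the threshold (interval 0.48 to 1.22; adjusted p = 0.0585). It passed with the DESeq2 test (adjusted p = 0.00256), with no filter on low counts, with total library size, and without WT RIP 3 or WT input 3. The edgeR fit with the replicate number as a block within line called it too (adjusted p = 0.0349). The GCLM transcript is 37.3% G or C, in the GC-poor class of coding genes, whose median difference of enrichments was 0.20. With the GC trend removed the difference of GCLM was 0.60 and was not called. With the replicate number added to that fit as a block it was again 0.60 and was called (adjusted p = 0.0497). Between the precipitates the log2 fold change was -0.19 ± 0.13 (adjusted p = 0.328), and between the inputs GCLM fell by 1.04 ± 0.13 (adjusted p = 5.82e-06). CCS differed between the lines in the precipitates and not detectably in the inputs, whereas GCLM differed in the inputs and not detectably in the precipitates.

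GCLC was called in none of the 5 comparisons as reported. With the GC trend removed it was called lower in precipitates of the mutant line (-0.31, adjusted p = 0.0153), and with total library size lower in mutant input than in WT input (-0.54, adjusted p = 0.0374) and higher in the precipitates of each line (1.27 and 1.02). It lies at chr6:53362139-53481768 on the minus strand (ENSG00000001084). GCLC had 16.8, 14.5 and 16.0 CPM in mutant RIP, against 16.3, 15.3 and 17.0 CPM in mutant input. It had 16.7, 16.5 and 17.5 CPM in WT RIP, against 19.6, 15.1 and 16.9 CPM in WT input, and all 4 groups overlapped one another. Its difference of enrichments was -0.02 (interval -0.38 to 0.34).

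**Figure D2:**
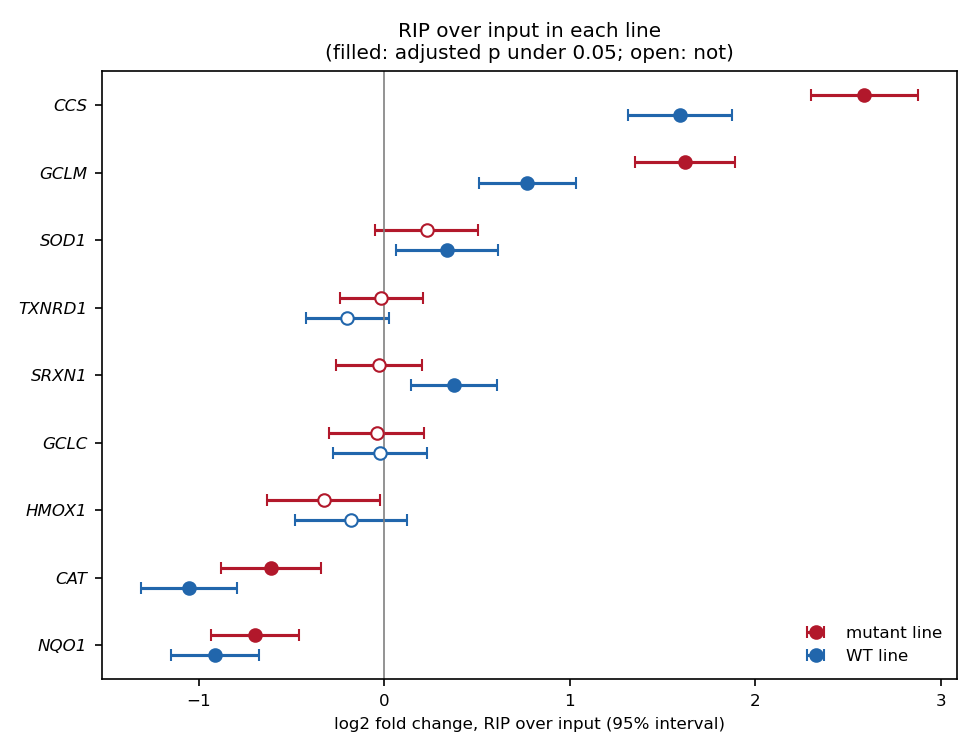
Log2 fold change of precipitate (RIP) over input for each member in the mutant line (red, upper of each pair) and the WT line (blue, lower), with 95% intervals; filled points passed an adjusted p of 0.05. CCS and GCLM lie to the right of 0 in both lines, at 2.59 and 1.62 in the mutant line and 1.59 and 0.77 in the WT line, and CAT and NQO1 lie to the left.

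TXNRD1 encodes the cytosolic thioredoxin reductase, which passes electrons from NADPH to thioredoxin. It lies at chr12:104609557-104744085 on the plus strand (ENSG00000198431). TXNRD1 had 72.2, 72.5 and 70.9 CPM in mutant RIP, against 73.2, 73.2 and 71.6 CPM in mutant input. It had 81.4, 73.6 and 77.3 CPM in WT RIP, against 93.9, 86.2 and 86.7 CPM in WT input. WT input was the highest group and overlapped no other. The log2 enrichment was -0.02 in the mutant line and -0.20 in the WT line (adjusted p = 0.132), and the log2 fold change between inputs, mutant over WT, was -0.29 (adjusted p = 0.0679). With the GC trend removed TXNRD1 was called lower in precipitates of both lines, at -0.31 in the mutant line (adjusted p = 0.00566) and -0.39 in the WT line (adjusted p = 0.000951). With total library size it was called higher in both (1.29 and 0.86). The value between inputs was called lower with the DESeq2 test (-0.26, adjusted p = 0.0343) and with total library size (-0.73).

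SRXN1 encodes sulfiredoxin, which repairs over-oxidized peroxiredoxins. It lies at chr20:627259-633844 on the minus strand (ENSG00000271303). It is uncertain here, because a second coding gene on the same strand, ENSG00000270299, covers 90.7% of its exon bases and held 98.6% to 99.8% of its counts in every library, so the counts of these genes cannot be separated. SRXN1 had 66.4, 58.4 and 56.6 CPM in mutant RIP, against 64.2, 58.7 and 62.2 CPM in mutant input. It had 81.1, 72.8 and 72.1 CPM in WT RIP, against 58.8, 56.7 and 58.8 CPM in WT input.

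WT RIP was the highest of the 4 groups for SRXN1 and overlapped no other. The log2 enrichment was -0.03 in the mutant line and 0.37 ± 0.11 in the WT line (adjusted p = 0.00726). The difference of enrichments was -0.40 ± 0.16, the lowest of the 9 members, and did not pass (adjusted p = 0.258). Between precipitates, mutant over WT, it was -0.32 ± 0.11 (adjusted p = 0.0487), a call lost in 11 of 21 other settings, among them without WT RIP 1 (-0.26), without mutant RIP 2 (-0.29) or 3 (-0.27) and with no filter (-0.33).

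NQO1 encodes a quinone reductase and is often used as a readout of NRF2 activity. It lies at chr16:69740899-69760571 on the minus strand (ENSG00000181019). An antisense lncRNA, ENSG00000261602, lies over 19.4% of its exon bases, with counts 5.49% to 14.04% as high as those of NQO1, and the strand setting of the counting is not given in the sources used here. NQO1 had 22.4, 26.8 and 23.0 CPM in mutant RIP, against 40.1, 40.3 and 36.8 CPM in mutant input. It had 20.8, 20.0 and 19.4 CPM in WT RIP, against 39.4, 34.5 and 39.3 CPM in WT input. Every precipitate was below every input, and the inputs of the lines overlapped.

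NQO1 fell in precipitates against inputs by 0.70 ± 0.11 on the log2 scale in the mutant line (adjusted p = 1.09e-05) and by 0.91 ± 0.12 in the WT line (adjusted p = 3.14e-07). Scaled by total counts these values turned to 0.61 and 0.14, both below the medians of all genes under that scaling. The precipitates did not overlap, but the log2 fold change between them, mutant over WT, was 0.26 (adjusted p = 0.11). It was called higher with TMM factors from coding genes, at 0.32 (adjusted p = 0.0469). The DESeq2 test also called it, at 0.30 (adjusted p = 0.0485), and so did the fit after removal of the GC trend, at 0.28 (adjusted p = 0.0453). The difference of enrichments was 0.22 (interval -0.12 to 0.55).

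HMOX1 encodes haem oxygenase 1, which breaks haem down to biliverdin, iron and carbon monoxide. It lies at chr22:35776354-35790207 on the plus strand (ENSG00000100292). HMOX1 had 12.2, 10.7 and 8.92 CPM in mutant RIP, against 15.5, 12.5 and 12 CPM in mutant input. It had 10.5, 12.3 and 11.2 CPM in WT RIP, against 11.9, 11.6 and 14.97 CPM in WT input. The groups overlapped within each line and between the lines. No comparison passed as reported, with log2 enrichments of -0.33 in the mutant line (adjusted p = 0.0609) and -0.18 in the WT line (adjusted p = 0.314), and a difference of -0.15 (interval -0.57 to 0.28). The mutant value was called lower without mutant RIP 1 (-0.44, adjusted p = 0.0250) and without mutant input 2 (-0.40) or 3 (-0.41). With all libraries kept, the edgeR fit with the replicate number as a block within line also called it lower (-0.33, adjusted p = 0.0366). With the GC trend removed the enrichments of HMOX1, whose transcript is 57.7% G or C, turned to 0.38 and 0.39 and passed in each line, and with total library size they were 0.98 and 0.87 and passed too.

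The members were split between genes recovered above and below input. In the mutant line 2 of 9 were higher in precipitates (CCS and GCLM) and 2 lower (NQO1 and CAT), where 29% of all genes tested were higher and 28% lower. In the WT line 4 of 9 were higher (CCS, GCLM, SRXN1 and SOD1) and 2 lower (CAT and NQO1), where 25.6% of all genes were higher and 25.4% lower. The median log2 enrichment of the members was -0.03 in the mutant line and -0.02 in the WT line, against 0.07 and 0.06 for all genes tested and -0.11 and -0.13 for coding genes. These counts shift with the scaling: by total counts all 9 were higher in the mutant line.

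Between the lines, 1 of 9 members was higher in mutant RIP than in WT RIP (CCS) and 3 were lower (CAT, SOD1 and SRXN1), where 9.87% of all genes were higher and 9.76% lower. In the inputs 0 members were higher and 2 were lower (CAT and GCLM), where 7.47% of all genes were higher and 10% lower. The comparisons share libraries with each other, so these counts are not independent. Groups did not overlap for 4 of 9 members in mutant RIP against mutant input (63.2% of all genes tested), 7 in WT RIP against WT input (59.2%), 6 between precipitates (35.6%) and 4 between inputs (33.7%).

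**Figure D3:**
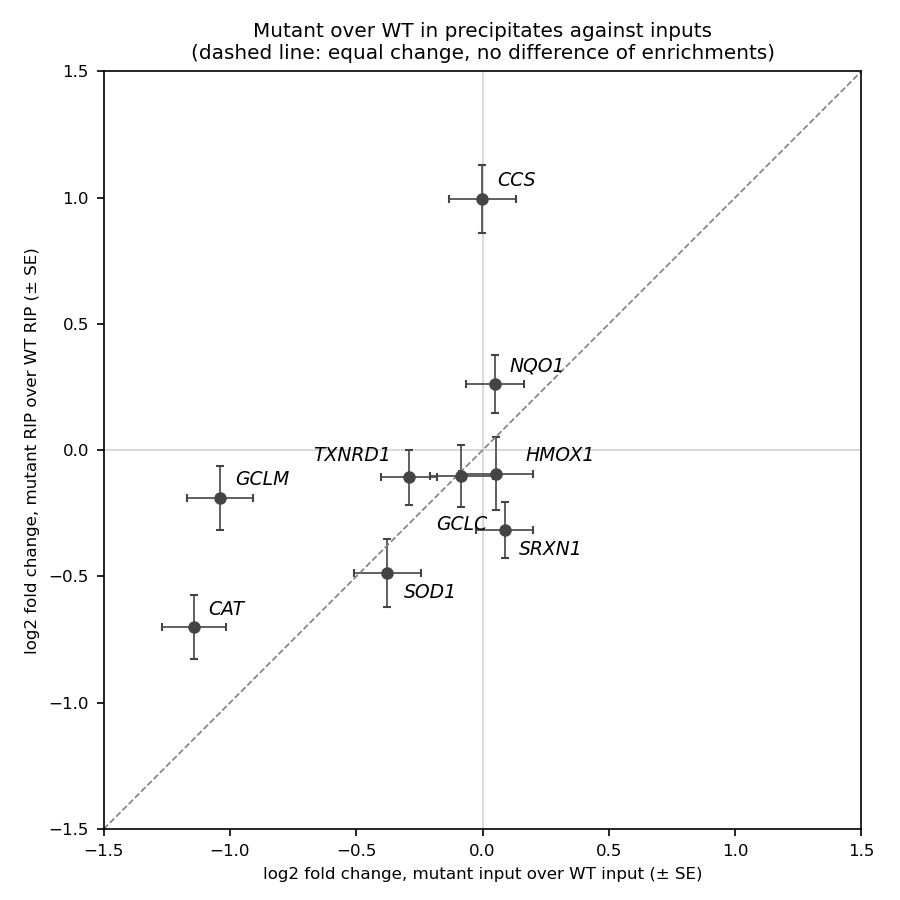
Log2 fold change of mutant over WT between precipitates (vertical axis) against that between inputs (horizontal axis) for the 9 members, with SE bars; the dashed line marks equal change. CCS lies at -0.00 between inputs and 0.995 between precipitates, GCLM at -1.04 and -0.19, and CAT at -1.14 and -0.70; SOD1, GCLC and HMOX1 lie near the line.

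Per kilobase of annotated exon, SOD1 had the highest level in the inputs and CCS in the precipitates, with the exception given above for mutant input per longest transcript. In WT input SOD1 (46.3 CPM per kb), CCS (25.6) and SRXN1 (23.0 ± 0.47) came first, then TXNRD1 (13.3 ± 0.64) and NQO1 (12.7 ± 0.93), which did not differ beyond their SD. GCLM (8.36 ± 1.14) and CAT (7.71 ± 0.53) did not differ beyond their SD either. HMOX1 (5.57 ± 0.80) and GCLC (1.99 ± 0.26) were the lowest. In mutant input CCS (25.6 ± 0.86) and SRXN1 (24.4 ± 1.11) had overlapping libraries. The order there was the same but for GCLM and CAT, which fell to 4.07 ± 0.40 and 3.49 ± 0.22, below HMOX1 (5.79 ± 0.83), and for NQO1 (13.1 ± 0.66), which stood above TXNRD1 (10.8 ± 0.14). In mutant RIP, CCS was followed by SOD1 (41.7), SRXN1 (23.9 ± 2.06), GCLM (12.5 ± 0.44) and TXNRD1 (10.7 ± 0.12). NQO1 (8.10 ± 0.80), HMOX1 (4.60 ± 0.71), CAT (2.28 ± 0.15) and GCLC (1.83 ± 0.14) came last there. In WT RIP the order was the same, with SRXN1 at 29.8 ± 1.98, GCLM at 14.2 ± 1.81 and GCLC at 1.96 ± 0.06 CPM per kb. Other neighbours turned with the length too: per longest transcript in mutant input TXNRD1 (18.3 ± 0.23) stood above NQO1 (15.5 ± 0.77). CAT stood above GCLM in WT input (12.04 ± 0.83 against 9.29 ± 1.27) and in mutant input (5.45 ± 0.34 against 4.52 ± 0.44). The order in precipitates turned as well. TXNRD1 stood above GCLM in mutant RIP (18.1 ± 0.21 against 13.9 ± 0.49) and WT RIP (19.5 ± 0.98 against 15.8 ± 2.01). GCLC (4.16 ± 0.31) stood above CAT (3.57 ± 0.24) in mutant RIP.

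Of 88 other genes of the same pathways, 0 were called for the difference of enrichments by edgeR and 0 by DESeq2. By edgeR 4 were higher and 1 lower at an unadjusted p under 0.05. In the mutant line 21 of the 88 were higher in precipitates and 40 lower, where 29% of all genes tested were higher and 28% lower. In the WT line 20 were higher and 39 lower, where 25.6% of all genes were higher and 25.4% lower. The counts for each list below stand beside these same shares, which include noncoding genes. Coding genes lay lower over input, with median log2 enrichments of -0.11 (mutant line) and -0.13 (WT line), against 0.07 and 0.06 for all genes. The medians of the 88 genes were -0.26 and -0.29. Shares called among coding genes alone are not given here. These 88 genes are those tested in 6 lists on NRF2 control, glutathione, thioredoxin, NADPH supply, copper handling and other NRF2 targets.

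Among the 12 tested genes of copper handling, 3 were higher in mutant RIP over mutant input and 6 lower, and 3 were higher and 5 lower in the WT line. COX17, a copper chaperone of mitochondria, was 1.75 higher in log2 in the mutant line (adjusted p = 2.1e-10) and 1.79 higher in the WT line (adjusted p = 3.32e-10). ATP7B, the copper exporter of hepatocytes, was -0.90 in each line. COX17 was recovered above input in each line, as CCS was, but was not called for the difference of enrichments.

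Of the 9 genes of NRF2 control, 4 were higher and 3 lower in the mutant line, and 2 higher and 2 lower in the WT line. BACH1, a repressor that competes with NRF2, rose in precipitates by 1.49 in the mutant line (adjusted p = 1.85e-08) and 1.31 in the WT line. KEAP1, the adaptor that targets NRF2 for degradation, was -0.93 in the mutant line (adjusted p = 1.57e-05) and -0.80 in the WT line. RBX1, a subunit of the ligase that KEAP1 serves, was 1.08 in the mutant line and 0.89 in the WT line (adjusted p = 1.19e-05 and 0.000138).

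Of the 14 thioredoxin and peroxiredoxin genes, 4 were higher and 6 lower in the mutant line, and 4 higher and 8 lower in the WT line. TXN, which encodes thioredoxin, the substrate of TXNRD1, was recovered above input by 2.28 in the mutant line (adjusted p = 9.61e-12) and 1.87 in the WT line (adjusted p = 4.72e-10). PRDX5, a peroxiredoxin, was 1.46 in the mutant line and 1.56 in the WT line. TXN also rose in mutant RIP over WT RIP by 0.68 (adjusted p = 0.00236), and PRDX2 fell by 0.88 (adjusted p = 0.0003). PRDX2 fell between the inputs too, by 0.58 (adjusted p = 0.0108), where TXN was not called (0.28, adjusted p = 0.228). Neither was called for the difference of enrichments (adjusted p = 0.436 for TXN and 0.614 for PRDX2).

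Of the 24 glutathione genes, 7 were higher and 8 lower in the mutant line, and 9 higher and 8 lower in the WT line. GSS, the second enzyme of glutathione synthesis, was -1.62 in the mutant line (adjusted p = 1.52e-10) and -1.65 in the WT line, opposite in sign to GCLM. GSTP1, a glutathione transferase, was -1.74 in the mutant line and -1.80 in the WT line. Between the inputs 7 of the 24 were higher in the mutant line and 5 lower (7.47% and 10% of all genes), with GPX7 at -0.89 (adjusted p = 3.8e-05) and GPX2 at 0.88 (adjusted p = 0.00041), both of the glutathione peroxidase family.

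Of the 8 genes of NADPH supply, 2 were higher and 4 lower in the mutant line, and 1 was higher and 5 lower in the WT line. IDH2, which makes NADPH in mitochondria, was -1.81 in the mutant line and -1.74 in the WT line, and fell between the inputs, mutant against WT, by 0.80 (adjusted p = 0.000182). Of the 21 tested genes of the last list, 1 was higher and 13 lower in the mutant line, and 1 higher and 11 lower in the WT line. EPHX1, which encodes microsomal epoxide hydrolase, was -2.15 in the mutant line (adjusted p = 7.91e-12) and -2.11 in the WT line. ABCC4, a drug and cyclic nucleotide exporter, was 1.54 in the mutant line and 1.26 in the WT line. AKR1C1, an aldo-keto reductase, rose in mutant input over WT input by 1.34 (adjusted p = 0.0013) and in mutant RIP over WT RIP by 1.41 (adjusted p = 0.000502).

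**Figure D4:**
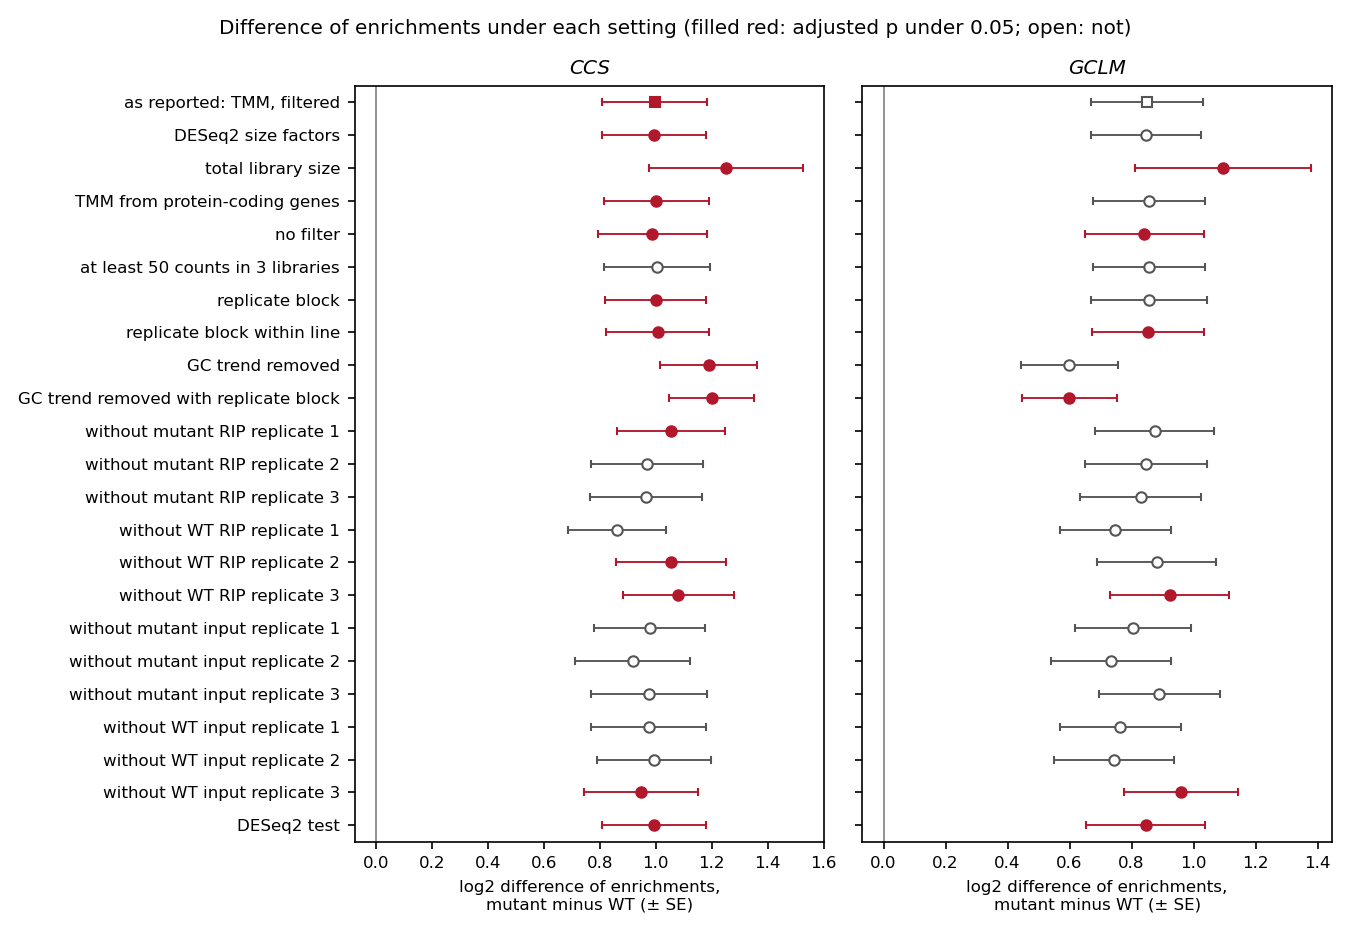
Difference of enrichments (mutant minus WT, log2, with SE bars) of CCS and GCLM as reported and under each other setting, including each library left out in turn; filled red marks an adjusted p under 0.05. CCS stays between 0.86 and 1.25 and loses the call in 9 of 22 settings, and GCLM stays between 0.60 and 1.09 and gains it in 7.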

How the data were processed

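The authors deposited unnormalized gene counts, with 1 table for each library and Ensembl identifiers as names. Per the submitters' processing notes these were made with bcl2fastq 2.20.0.422, cutadapt, STAR 2.4.0j and featureCounts 1.6.4 on hg19. Per the labels, libraries came from a stranded total RNA kit. How reads mapping to several places were treated, which strand setting was used and which annotation was counted are not given in the sources used here, and the column headers carry a DMSO tag that the labels do not describe. Names and positions come from the GRCh37 version of GENCODE 44 (55538 of 57773 matched).

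Low counts were filtered with filterByExpr (at least 10, and 15 in total), and TMM scaling was applied. A robust quasi-likelihood model in edgeR 4.0.16 (R 4.3.3, limma 3.58.1) was fitted to all 12 libraries with 4 group coefficients and 8 residual degrees of freedom. A gene was called where its p, adjusted by Benjamini-Hochberg over all 22984 genes, was under 0.05. SE come from the F statistic. CPM are counts over TMM library sizes; CPM per kb divides by the union of annotated exons. Replicates differed by more than sampling noise (chi-square per degree of freedom 14.97 to 229), and the common biological coefficient of variation was 0.157. The members and the gene lists were chosen with earlier results of these data known. From each list, up to 3 called genes per comparison with the smallest adjusted p could be named; the text names fewer, and a few results that the rule selects are not reported here. The fit was also run on simulated data, with an outcome that is not reported here.

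The alternatives were DESeq2 1.42.0 (size factors, and its test), total library size, TMM from coding genes, no filter, a filter of 50 counts in 3 libraries, the replicate number as a block (also within line, and with the GC trend), removal of each library's trend with transcript GC content (lowess, span 0.3), and each library left out. For levels they were total library size and the longest transcript. Figures used Python 3.11.15, numpy 2.4.6, pandas 2.3.3 and matplotlib 3.10.9.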

Additional observations from a re-analysis of the deposited data

Results flagged for a closer look

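The enrichment of CCS over input differed between the lines by 0.996 on the log2 scale in the edgeR test of the difference itself, from log2 enrichments of 2.59 in the mutant line and 1.59 in the WT line. CCS was the 1 member of 9 for which this difference passed, in a list chosen with earlier results of these data known. Every mutant RIP library (302 to 345 CPM) was above every WT RIP library (133 to 184 CPM), while mutant inputs (52.8 to 56.0 CPM) and WT inputs (52.8 to 58.7 CPM) overlapped. WT RIP 1, with 133 CPM, was the lowest precipitate, and without it the difference was 0.86 (adjusted p = 0.149). The part of RNA amount in this difference was not tested.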

How the results depend on the processing

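Over 972 recalculated log2 fold changes of members, 850 kept direction and call, 33 gained a call, 27 lost it and 62 changed sign; for the values below the cause was not tested. Total library size moved the median of all genes to 1.38 (mutant RIP over mutant input), 1.12 (WT RIP over WT input), 0.25 (difference of enrichments), -0.17 (precipitates) and -0.43 (inputs). Under it 9 members were called for mutant enrichment, 2 for the difference and 5 between inputs, and 105 genes of the table for the difference and 7208 between inputs. Signs turned in mutant enrichment for CAT (0.69), NQO1 (0.61), HMOX1 (0.98), GCLC (1.27), TXNRD1 (1.29) and SRXN1 (1.28), in WT enrichment for NQO1 (0.14), HMOX1 (0.87), GCLC (1.02) and TXNRD1 (0.86), in the difference for SOD1 (0.14), HMOX1 (0.12) and GCLC (0.25), and between inputs for NQO1 (-0.40), HMOX1 (-0.38) and SRXN1 (-0.35).

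With the GC trend removed 7 members were called for mutant enrichment and 58 genes for the difference. In that setting mutant enrichment turned for SOD1 (-0.043), HMOX1 (0.38) and SRXN1 (0.21), WT enrichment for HMOX1 (0.39), and inputs for HMOX1 (-0.053) and GCLC (0.027). Values within 0.12 of 0 changed sign under other scalings and filters. Size factors of DESeq2 gave TXNRD1 0.010 (mutant enrichment), GCLC 0.0062 (WT enrichment) and CCS 0.036 (inputs), and its test gave 0.010, 0.0058 and 0.036. TMM from coding genes gave GCLC 0.084, TXNRD1 0.11 and SRXN1 0.096 (mutant enrichment), GCLC 0.098 (WT enrichment) and CCS 0.050 (inputs). The filter of 50 counts gave 0.030, 0.055, 0.041, 0.041 and 0.021 for the same values.

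The number of genes called for the difference, 15 as reported, was 25 with TMM from coding genes, 185 with no filter, 1 with 50 counts in 3 libraries and 389 with the DESeq2 test. Of the members, 2 were called with no filter and with the DESeq2 test, and 0 with 50 counts in 3 libraries, where CCS had an adjusted p of 0.0546 and 1 other gene was called.

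The replicate numbers were not taken as pairs, since the labels do not say that they pair the samples. Deviations of same-numbered libraries had correlations of -0.52 to 0.61, and 7 of 12 pairs were over 0.1. Across the lines they were 0.36, 0.61 and 0.04 between precipitates and -0.36, 0.16 and -0.52 between inputs. These values do not settle whether same-numbered libraries were handled together. With the replicate block 23 genes were called for the difference and CCS between inputs was 0.0023. With the block within line 105 genes and 2 members (CCS and GCLM) were called. With the block and GC trend removed together, 260 genes and 2 members were called for the difference and 7 members for mutant enrichment. That fit turned mutant enrichment of SOD1 (-0.053), HMOX1 (0.38) and SRXN1 (0.20), WT enrichment of HMOX1 (0.39), and inputs of HMOX1 (-0.054) and GCLC (0.031).

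With each library left out in turn, genes called ranged over 11961 to 13212 (mutant enrichment), 10401 to 12064 (WT enrichment), 0 to 75 (difference), 2796 to 5129 (precipitates) and 2195 to 4160 (inputs), and members called over 4 to 6, 5 to 6, 0 to 2, 3 to 4 and 2 to 3 in the same order. Ranges that crossed 0 were -0.10 to 0.019 (GCLC) and -0.10 to 0.018 (SRXN1) in mutant enrichment, -0.084 to 0.12 (GCLC) in WT enrichment, -0.23 to 0.038 (SOD1) and -0.17 to 0.044 (GCLC) in the difference, -0.21 to 0.017 (HMOX1) between precipitates, and -0.024 to 0.052 (CCS), -0.16 to 0.036 (GCLC), -0.062 to 0.18 (HMOX1) and -0.0075 to 0.097 (NQO1) between inputs. No leave-one-out fit ended a call of CCS or GCLM over input, of CAT or NQO1 over input, or of CAT and GCLM between inputs.

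The median level of the members, 10.7 CPM per kb in mutant RIP, 11.5 in WT RIP, 10.8 in mutant input and 12.6 in WT input, was 15.2, 18.7, 6.21 and 9.84 by total library size and 13.9, 15.8, 15.5 and 14.9 per longest transcript. With 3 libraries a group and 342 to 21379 counts per member and library, spread between libraries and not depth limits these tests.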
